A study of Homo sapiens with 4 samples.

Results

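The aminoacyl-tRNA synthetase genes are the nuclear genes for the enzymes that load amino acids onto transfer RNAs. They were taken by symbol from the gene table, as 20 genes for cytosolic enzymes and 16 genes for mitochondrial enzymes, whose symbols end in 2. These 36 genes were among 41507 genes listed. RNA was measured in SU-DHL-5 and Toledo, established cell lines of human diffuse large B-cell lymphoma (DLBCL), an aggressive tumor of B lymphocytes. Cells of each line received the vehicle DMSO or 1 µM of JQ1, a small molecule that occupies the bromodomains of the BET proteins and keeps them from acetylated chromatin. The exposure was 6 h by the sample labels, while a figure legend of the study gives a longer one. All cells were grown in RPMI1640 medium with fetal bovine serum and antibiotics, and no genotype other than that of the line was involved. Each line and treatment was 1 sample, sequenced as 2 libraries, so that within a line no treatment had a biological replicate. The lines were not treated as replicates of each other, and no test was made.

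Each synthetase recognizes an amino acid and its matching transfer RNAs and joins them at the cost of ATP, which fixes the genetic code in chemical form. The cytosolic enzymes serve the ribosomes that make nearly all proteins of the cell, and the mitochondrial enzymes serve the few proteins encoded by mitochondrial DNA. Part of the cytosolic enzymes sit together in the multi-tRNA synthetase complex on scaffold proteins. Many genes of cytosolic synthetases are known to be activated by ATF4, the transcription factor of the amino acid stress response, through a short element in their promoters, and growth-promoting factors such as MYC are known to act on this part of the translation machinery too.

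Levels are given in RPKM (mapped reads of a gene, scaled to its length and to the mapped reads of its library), which can be compared between genes since they are per length. A library held a median of 16252335 mapped reads, between 14617583 and 17679831, and 94.8% to 95.5% of these fell on genes. All 36 synthetase genes reached the mean of 1 RPKM that was asked of a gene, as did 9521 genes in all, and the smallest number of reads behind a value in 1 library was 856 for the cytosolic and 107 for the mitochondrial genes. The B-cell markers MS4A1, CD79A, CD79B and PAX5 were present in every library (5.46 RPKM and more). With JQ1, MS4A1 (log2 ratios of -1.99 and -1.47) and CD79A (-0.71 and -0.76) lay lower in SU-DHL-5 as well as in Toledo, CD79B (0.01 and -0.28) lower only in Toledo, and PAX5 (-0.64 and 0.27) lower only in SU-DHL-5. CD3D, CD14 and EPCAM were at or near 0. CD3E and LYZ, markers of T and myeloid cells, reached about 1 RPKM only in the DMSO libraries of SU-DHL-5, with 1.09 and 0.934 RPKM against 0.120 and 0.0452 RPKM with JQ1, and 1.09 and 1.20 against 0.200 and 0.0903 RPKM. The part of these transcripts in the results was not tested. HEXIM1, a gene known to respond to BET inhibitors, had 4.35 and 3.89 RPKM with DMSO and 22.4 and 22.9 RPKM with JQ1 in SU-DHL-5, and 4.04 and 3.94 against 23.9 and 24.5 RPKM in Toledo.

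With JQ1, most cytosolic synthetase genes had lower RPKM in both lines, while the mitochondrial ones were spread on either side of no difference. A gene was counted as below when each of its JQ1 libraries was under each of its DMSO libraries, and as above in the reverse case. Libraries of genes with more reads come apart more easily under this rule. The cytosolic genes had a median DMSO level of 73.0 RPKM (SU-DHL-5) and 69.6 RPKM (Toledo), against 9.16 and 9.31 RPKM for all genes. The counts are therefore not matched for level. In SU-DHL-5, 16 of the 20 cytosolic genes lay below, as did 37.3% of the 9521 genes, and 1 lay above (41.1% of all genes). In Toledo, 15 of the 20 lay below (42.9% of all genes) and 2 above (29.3% of all genes). The median log2 ratio of JQ1 over DMSO, computed on the means of the 2 libraries plus 0.1 RPKM, was -0.41 for the cytosolic genes of SU-DHL-5, and for those of Toledo it was -0.29. This is 75.5% and 81.9% of the DMSO level. Over all 9521 genes the medians were 0.01 and -0.06. These are bulk samples, in which fewer cells of a type and less RNA per cell cannot be told apart. As RPKM are scaled to the mapped reads of a library, a change in the total RNA of the cells would not show in them.

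The mitochondrial group did not share this shift. Of its 16 genes, 6 (37.5%) lay below and 4 (25%) above in SU-DHL-5, against 37.3% and 41.1% of all genes, with a median log2 ratio of 0.01. In Toledo, 7 (43.8%) lay below and 5 (31.2%) above, against 42.9% and 29.3% of all genes, with a median of -0.01. The shares below were thus near those of all genes. In both lines together, 14 cytosolic genes (AARS, CARS, DARS, FARSA, GARS, IARS, KARS, LARS, MARS, NARS, TARS, VARS, WARS and YARS) and 5 mitochondrial genes (AARS2, CARS2, FARS2, LARS2 and YARS2) lay below, against 29.1% of all genes. NARS2 was the only synthetase gene above in both lines, against 22.7% of all genes. The differences were moderate. In SU-DHL-5 the ratios of the 36 genes ran from -0.79 to 0.31, and in Toledo they ran from -0.86 to 0.52, so that none was under 0.5 as a fold (5.44% and 6.94% of all genes were) and none above 2 (1.74% and 1.61%).

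**Figure D1:**
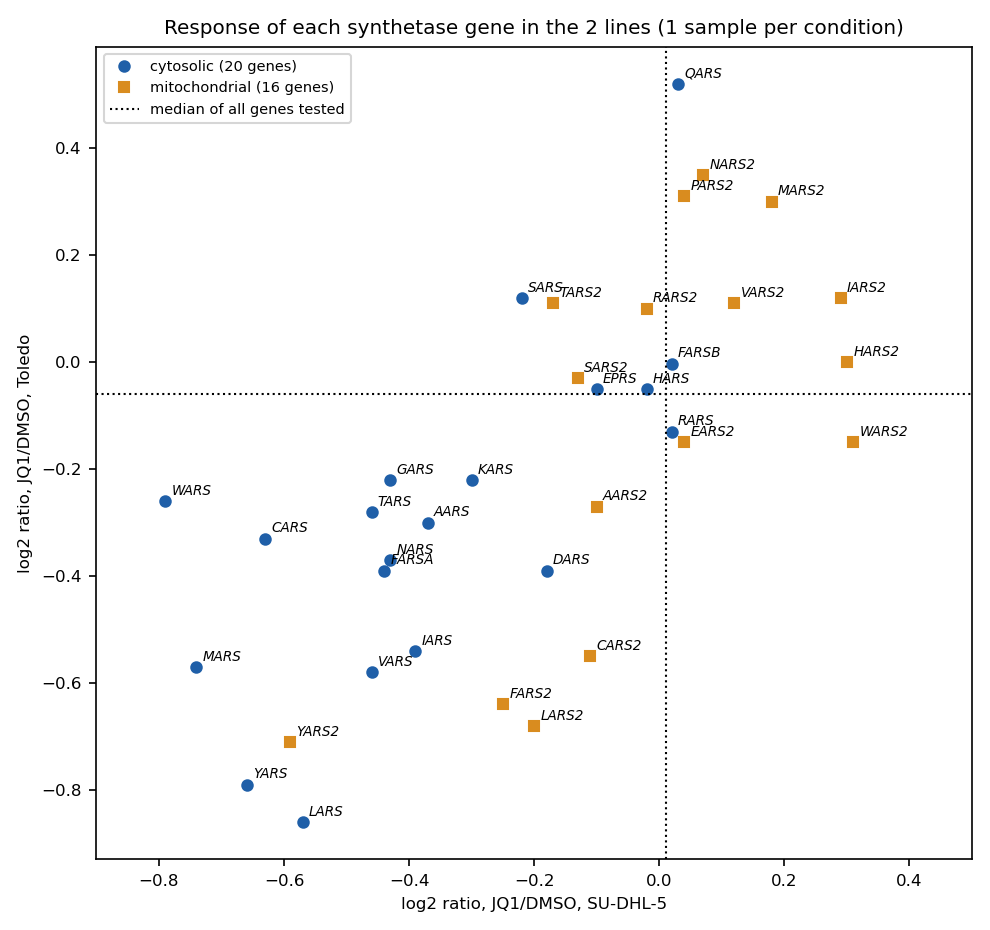
Log2 ratio of JQ1 over DMSO of each synthetase gene, SU-DHL-5 on the horizontal and Toledo on the vertical axis, with dotted lines at the medians of all genes tested. Cytosolic genes (blue circles) gather at the lower left, with LARS and YARS farthest down and QARS alone at the top, and mitochondrial genes (orange squares) lie around the dotted lines apart from YARS2, LARS2, FARS2 and CARS2.

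The DMSO libraries of SU-DHL-5 differed from each other for the cytosolic genes, as the second library had a median log2 ratio of -0.15 to the first, against -0.02 over all genes. With the first library of each sample alone, the cytosolic median in this line was -0.50, and with the second alone it was -0.27. In Toledo the same medians were -0.24 and -0.28, and the second DMSO library stood at 0.06 to the first.

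Because the cytosolic genes that lay lowest include known targets of ATF4, the promoters of the synthetase genes were read for TGATGNAA on both strands. This is the core of the element that C/EBP and ATF factors share. It was chosen with the ratios known, and synthetase genes activated by ATF4 are known to carry such an element. The split by the core therefore describes the values and tests no cause. RefSeq promoter windows (GRCh38.p14, from 250 bases before to 50 bases after a start site) were matched for 30 of the 36 genes, 16 cytosolic and 14 mitochondrial. No window was matched for DARS, LARS, VARS, YARS, AARS2 and VARS2. The core was found in 8 of the 30 genes (26.7%), against 3.62% of 35116 windows and 4.46% of 27305 genes. The 30 bases around each match are shown with the core in capitals, 5′ to 3′ on the strand that carries it, since all of these genes lay below in both lines.
AARS: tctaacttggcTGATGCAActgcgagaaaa
CARS: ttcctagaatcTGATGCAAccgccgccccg
GARS: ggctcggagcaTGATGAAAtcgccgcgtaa
IARS: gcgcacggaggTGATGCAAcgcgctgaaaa
MARS: gaatccctcgcTGATGCAAccggaaccggc
NARS: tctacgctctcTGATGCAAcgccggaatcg
TARS: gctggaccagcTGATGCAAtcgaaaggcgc
YARS2: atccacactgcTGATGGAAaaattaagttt

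The open base of the core was C in AARS, CARS, IARS, MARS, NARS and TARS, A in GARS and G in YARS2. Counted along the gene from the start site of the window, the match began 2 bases before it in CARS, 4 in MARS, 13 in IARS, 33 in GARS, 187 in AARS and 197 in YARS2, and 3 bases after it in TARS and 15 in NARS. The windows shown are chr16:70289675-70289704 (AARS, plus strand), chr11:3057407-3057436 (CARS, plus), chr7:30594834-30594863 (GARS, minus), chr9:92293692-92293721 (IARS, plus), chr12:57488053-57488082 (MARS, minus), chr18:57621804-57621833 (NARS, minus), chr5:33440956-33440985 (TARS, minus) and chr12:32756076-32756105 (YARS2, minus).

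All 8 genes with the core lay below in both lines, as did 29.1% of all genes. Their median log2 ratio was -0.45 (SU-DHL-5) and -0.35 (Toledo, the values of the lines being given in this order). Of the 22 matched genes without it, 6 did so in both lines, and their medians were -0.02 and -0.04. The genes with the core are nearly all cytosolic. Among the 16 matched cytosolic genes alone, the 7 with the core had medians of -0.43 and -0.33, and the 9 without it, of which 3 lay below in both lines, had -0.10 and -0.05. WARS, FARSA and KARS are these 3 genes, and WARS had the lowest ratio of all synthetase genes in SU-DHL-5 with no match in its window. The cytosolic genes without a matched window, DARS, LARS, VARS and YARS, all lay below in both lines, and whether they carry the core is unknown. Including them could change this contrast. A match of letters is not a measured binding site.

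Other letters were searched for as well. CACGTG, the E-box bound by MYC and related factors, was found in IARS, CARS2, EARS2 and MARS2 (13.3% of the 30 genes, against 8.77% of all genes and 7.26% of all windows). Their median ratios were -0.03 and -0.34, against -0.18 and -0.14 in the 26 genes without it. CCAAT, a common promoter box, was found in 16 genes (53.3%, against 39.7% of all genes and 34.6% of all windows), with medians of -0.12 and -0.15, against -0.21 and -0.17 in the 14 genes without it. No TGATGNAA match of a synthetase gene shared bases with a match of CACGTG or CCAAT.

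Among the cytosolic enzymes outside the multi-tRNA synthetase complex, YARS had the lowest ratio by the mean of the lines. YARS, which charges tyrosine, had 96.2 and 83.2 RPKM with DMSO and 55.9 and 57.7 RPKM with JQ1 in SU-DHL-5, and 75.5 and 76.7 against 42.1 and 46.1 RPKM in Toledo. The libraries were well apart in both lines, with log2 ratios of -0.66 (95% counting interval -0.70 to -0.61) and -0.79 (-0.84 to -0.73). These intervals are exact binomial intervals on the recovered reads and cover counting error only.

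WARS, the tryptophan enzyme, which is also known as an interferon-induced gene, had 69.0 and 55.6 RPKM with DMSO and 35.3 and 36.9 RPKM with JQ1 in SU-DHL-5. In Toledo it had 54.2 and 55.4 against 44.0 and 47.3 RPKM. The ratio was -0.79 (-0.84 to -0.72) in SU-DHL-5, the lowest of the 36 genes there, and -0.26 (-0.32 to -0.21) in Toledo. Both lines had lower libraries with JQ1, but the gap was wider in SU-DHL-5, whose own DMSO libraries were also farther apart.

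VARS charges valine and is known to bind the elongation factor complex EEF1. It had 49.7 and 40.2 RPKM with DMSO and 32.4 and 33.1 RPKM with JQ1 in SU-DHL-5, and 54.4 and 52.1 against 34.3 and 37.0 RPKM in Toledo, with ratios of -0.46 and -0.58. CARS, the cysteine enzyme, had 31.1 and 30 against 19.6 and 19.9 RPKM in SU-DHL-5 (ratio -0.63) and 26.1 and 25.9 against 20.3 and 21.0 RPKM in Toledo (ratio -0.33). For both genes no library of 1 treatment reached the other, although the DMSO libraries of VARS were themselves apart in SU-DHL-5, where its ratio was -0.62 or -0.28 with the first or the second library alone.

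GARS and KARS each encode the enzyme for the cytosol and for the mitochondria, for glycine and for lysine. GARS had 141 and 129 RPKM with DMSO and 96.5 and 103 RPKM with JQ1 in SU-DHL-5, and 96.4 and 104 against 83.3 and 89.5 RPKM in Toledo, with ratios of -0.43 and -0.22. It had the second highest level of the 36 genes in each line.

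AARS, NARS and TARS, the enzymes for alanine, asparagine and threonine, lay below in both lines. Their ratios in SU-DHL-5 were -0.37, -0.43 and -0.46, and in Toledo -0.30, -0.37 and -0.28. AARS had 102 and 86.2 RPKM with DMSO and 71.5 and 74.0 RPKM with JQ1 in SU-DHL-5, and 83.3 and 88.4 against 68.2 and 71.6 RPKM in Toledo. The level of NARS was 66.4 and 65.9 against 47.7 and 50.8 RPKM in SU-DHL-5, and 58.7 and 71.2 against 51.3 and 49.4 RPKM in Toledo. With the first or the second library of each sample alone, the ratio of AARS in SU-DHL-5 was -0.51 or -0.22, and that of NARS in Toledo was -0.19 or -0.53. TARS had 41.3 and 39.5 against 29.2 and 29.5 RPKM in SU-DHL-5, and started from a higher level in Toledo, with 75 and 82.3 against 63.8 and 65.6 RPKM.

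The phenylalanine enzyme is built of an alpha subunit from FARSA and a beta subunit from FARSB, and the genes of these subunits did not move alike. FARSA had 107 and 87.1 RPKM with DMSO and 70.8 and 72.5 RPKM with JQ1 in SU-DHL-5, and 102 and 95.3 against 71.3 and 79.9 RPKM in Toledo, with ratios of -0.44 and -0.39. With the first or the second library alone these were -0.60 or -0.26, and -0.52 or -0.25. FARSB had 68.2 and 61.3 against 64.3 and 66.7 RPKM in SU-DHL-5 and 46.8 and 48.3 against 46.3 and 48.6 RPKM in Toledo. Its libraries overlapped in both lines, and its ratios were 0.02 (-0.03 to 0.07) and -0.003 (-0.06 to 0.06).

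HARS, the histidine enzyme, had the lowest level of the cytosolic genes, and its libraries overlapped in both lines. It had 28.3 and 25.1 RPKM with DMSO and 25.2 and 27.6 RPKM with JQ1 in SU-DHL-5, and 17.6 and 19.2 against 17.0 and 18.6 RPKM in Toledo. With ratios of -0.02 (-0.08 to 0.05) and -0.05 (-0.13 to 0.04), no difference was detectable at this depth.

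SARS, which charges serine and also the selenocysteine transfer RNA, had libraries apart in opposite directions in the lines, as did 4 of the 36 genes and 7.05% of all genes. It had 116 and 102 RPKM with DMSO and 93.3 and 94.2 RPKM with JQ1 in SU-DHL-5 (ratio -0.22, -0.27 to -0.17), and 94.1 and 93.9 against 99.2 and 104 RPKM in Toledo (ratio 0.12, 0.07 to 0.17). The JQ1 libraries were thus lower in SU-DHL-5, by a ratio of -0.32 or -0.12 with the first or the second library alone, and higher in Toledo.

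**Figure D2:**
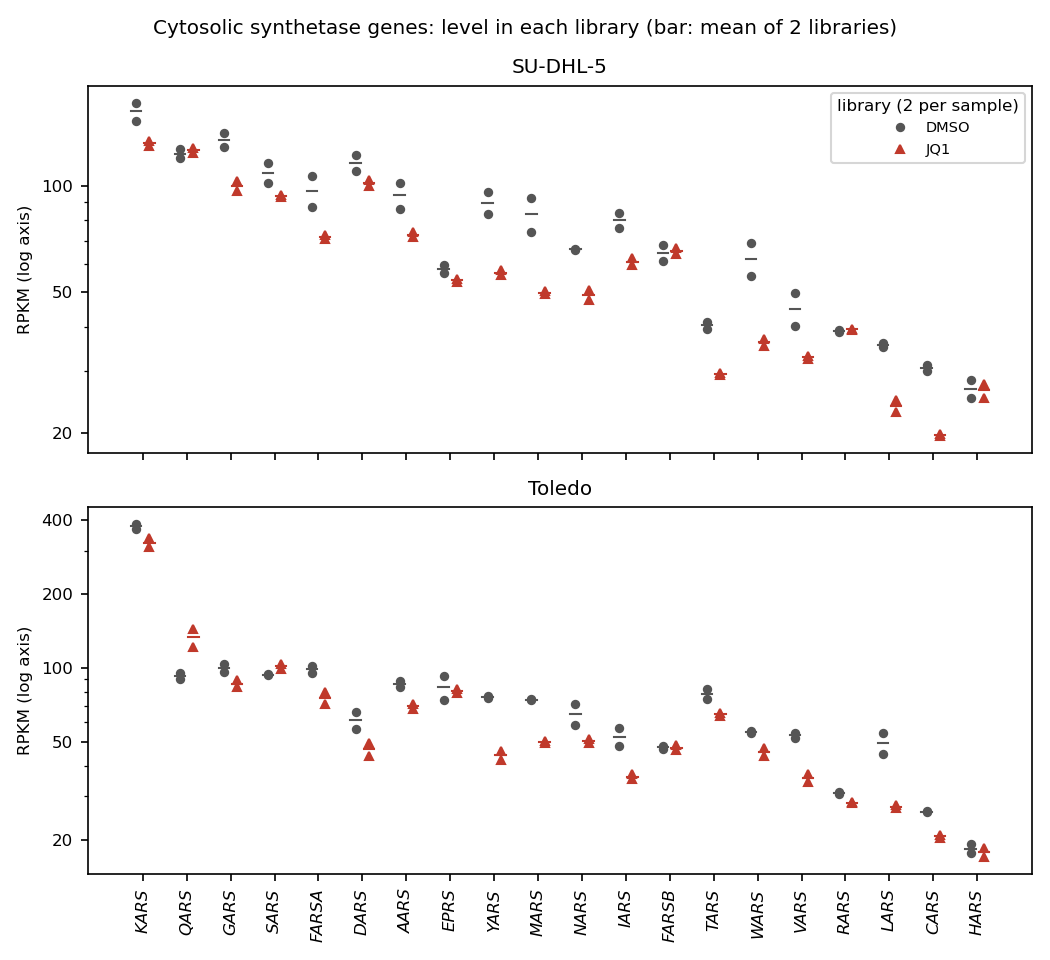
RPKM on a log axis of the 20 cytosolic synthetase genes in SU-DHL-5 (top) and Toledo (bottom), in order of their mean level; each point is a library (DMSO gray circles, JQ1 red triangles) and each bar the mean of the 2 libraries of a sample. The triangles lie under the circles for most genes from KARS, at 172 RPKM and 386 RPKM in its highest library of each line, to CARS, whereas QARS in Toledo has its triangles above its circles.

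The multi-tRNA synthetase complex holds 8 of the cytosolic enzymes, encoded by MARS, LARS, IARS, KARS, DARS, EPRS, QARS and RARS. Their median ratio was -0.24 (SU-DHL-5) and -0.31 (Toledo), against -0.44 and -0.29 for the 12 genes outside it. The genes of the complex did not move as a block. MARS and LARS lay among the lowest of all synthetase genes, and QARS was the highest in Toledo by the means of the libraries.

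MARS charges methionine, both for initiation and for elongation. It had 92.4 and 74.1 RPKM with DMSO and 50.5 and 49.3 RPKM with JQ1 in SU-DHL-5, and 73.8 and 74.7 against 49.5 and 50.3 RPKM in Toledo. The JQ1 values were nearly equal between the lines, and the ratios were -0.74 (-0.79 to -0.68) and -0.57 (-0.63 to -0.52). LARS, the leucine enzyme, which is also known as a leucine sensor of the mTORC1 pathway, had 36 and 35.0 against 23.0 and 24.8 RPKM in SU-DHL-5 and 44.6 and 54.5 against 27.6 and 26.9 RPKM in Toledo. Its ratio of -0.86 (-0.91 to -0.80) in Toledo was the lowest of the 36 genes in that line, and it was -0.57 (-0.64 to -0.52) in SU-DHL-5. With the first or the second library alone, the ratio of LARS in Toledo was -0.69 or -1.02. By the first alone, YARS (-0.84) and YARS2 (-0.76) were lower there. No JQ1 library of LARS reached a DMSO library.

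IARS, the isoleucine enzyme, carried both TGATGNAA and CACGTG in its promoter window. It had 83.9 and 75.9 RPKM with DMSO and 59.6 and 62.6 RPKM with JQ1 in SU-DHL-5 (ratio -0.39), and 48.1 and 57.1 against 37.0 and 35.3 RPKM in Toledo (ratio -0.54). KARS had the highest level of all synthetase genes in both lines. It had 172 and 153 RPKM with DMSO and 130 and 134 RPKM with JQ1 in SU-DHL-5 (ratio -0.30), and 369 and 386 against 310 and 337 RPKM in Toledo (ratio -0.22). For IARS and KARS the libraries of the treatments were apart in both lines, and the ratio of KARS in SU-DHL-5 was -0.41 or -0.19 with the first or the second library alone.

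DARS, for aspartate, had 110 and 122 against 100 and 104 RPKM in SU-DHL-5 and 56.7 and 66.0 against 49.7 and 43.8 RPKM in Toledo, with ratios of -0.18 and -0.39. EPRS encodes a fused enzyme for glutamate and proline. It had 59.6 and 56.6 RPKM with DMSO and 53.6 and 54.6 RPKM with JQ1 in SU-DHL-5 (ratio -0.10), and in Toledo its JQ1 libraries of 78.9 and 81.8 RPKM lay between the DMSO libraries of 74.0 and 92.8 RPKM (ratio -0.05). The gaps of DARS and EPRS were the narrowest among the genes of the complex that lay below in SU-DHL-5. By the first or the second library alone, DARS in Toledo was at -0.19 or -0.59 and EPRS in SU-DHL-5 at -0.15 or -0.05.

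QARS, for glutamine, and RARS, for arginine, stood apart from these. QARS had 127 and 120 RPKM with DMSO and 128 and 124 RPKM with JQ1 in SU-DHL-5, where the libraries overlapped (ratio 0.03, -0.003 to 0.07). In Toledo it had 95.3 and 90.4 against 122 and 144 RPKM. Its ratio of 0.52 (0.47 to 0.55) was the highest of the 36 genes and stood at percentile 91.4 of all genes. With the first or the second library alone this ratio was 0.35 or 0.67, and by the first alone NARS2 was higher (0.47). RARS had 39.1 and 38.7 against 39.2 and 39.5 RPKM in SU-DHL-5 (ratio 0.02, -0.06 to 0.09) and 30.7 and 31.4 against 28.1 and 28.5 RPKM in Toledo (ratio -0.13, -0.22 to -0.05). The JQ1 libraries of RARS were above in SU-DHL-5 by a margin within the counting interval (0.003 or 0.03 with the first or the second library alone), and below in Toledo.

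The scaffold proteins of the complex are encoded by AIMP1, AIMP2 and EEF1E1. AIMP1 had 18.5 and 19.3 RPKM with DMSO and 14.5 and 15.4 RPKM with JQ1 in SU-DHL-5, and 25.7 and 27.0 against 16.8 and 16.4 RPKM in Toledo, with ratios of -0.34 and -0.67. EEF1E1 had 62.5 and 63.0 against 47.9 and 49.8 RPKM, and 30 and 29.3 against 20.4 and 19.4 RPKM, with ratios of -0.36 and -0.57. AIMP2 was nearly level, with ratios of -0.07 (39.9 and 35.2 against 34.3 and 37.1 RPKM) and -0.04 (60.3 and 59.2 against 57.6 and 58.7 RPKM).

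The mitochondrial synthetase genes had lower levels than the cytosolic ones, with a median of 8.78 RPKM in the DMSO sample of SU-DHL-5 and 8.27 RPKM in that of Toledo, against 73.0 and 69.6 RPKM. YARS2, the mitochondrial tyrosine enzyme, was the lowest of the group by ratio, as YARS was near the lowest of the cytosolic group. It had 39.1 and 34.7 RPKM with DMSO and 23.2 and 25.6 RPKM with JQ1 in SU-DHL-5, and 23.6 and 21.6 against 13.9 and 13.6 RPKM in Toledo, with ratios of -0.59 (-0.69 to -0.51) and -0.71 (-0.84 to -0.61). The table's interval of YARS2, chr12:32725361-32755961, shares 20290 bases with DNM1L (mean of 38.0 RPKM over the libraries). Whether reads were assigned by strand is not given in the sources used here. The only YARS2 transcript of at least 1 RPKM, YARS2_2, is listed at chr12:32746544-32755953, with ratios of -0.59 and -0.70. The part of DNM1L reads in these values was not tested.

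LARS2, FARS2 and CARS2 charge leucine, phenylalanine and cysteine. All lay below in both lines, with a wider gap in Toledo. LARS2 had 11.6 and 11.8 RPKM with DMSO and 10.7 and 9.67 RPKM with JQ1 in SU-DHL-5 (ratio -0.20, -0.31 to -0.10), and 3.56 and 4.44 against 2.31 and 2.59 RPKM in Toledo (ratio -0.68, -0.90 to -0.50). FARS2, the gene of the lowest mean level, had 4.81 and 4.62 against 3.67 and 4.24 RPKM in SU-DHL-5 (ratio -0.25, -0.46 to -0.06) and 3.54 and 3.55 against 2.18 and 2.30 RPKM in Toledo (ratio -0.64, -0.91 to -0.42). CARS2 had 35.2 and 33.5 against 31.1 and 32.6 RPKM (ratio -0.11, -0.19 to -0.03), and 23.8 and 21.6 against 15.2 and 15.8 RPKM (ratio -0.55, -0.66 to -0.45). For LARS2 and CARS2 the counting intervals of the lines did not meet, and for FARS2 they did. The difference between the lines was not tested. The ratios in SU-DHL-5 depended on the library, being -0.12 or -0.29 for LARS2, -0.38 or -0.12 for FARS2 and -0.18 or -0.04 for CARS2 with the first or the second alone.

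AARS2, for alanine, lay below in both lines by less. It had 6.09 and 5.47 RPKM with DMSO and 5.41 and 5.32 RPKM with JQ1 in SU-DHL-5, and 5.34 and 4.84 against 4.48 and 3.93 RPKM in Toledo, with ratios of -0.10 (-0.24 to 0.04) and -0.27 (-0.43 to -0.13). In SU-DHL-5 its ratio was -0.17 or -0.04 by the first or the second library alone. EARS2, which charges glutamate, had 9.96 and 9.17 against 9.69 and 9.97 RPKM in SU-DHL-5 and 7.63 and 8.52 against 7.02 and 7.55 RPKM in Toledo, with ratios of 0.04 and -0.15. SARS2, for serine, had overlapping libraries in both lines, with 13.5 and 11.6 against 12.4 and 10.6 RPKM and 9.24 and 7.70 against 8.17 and 8.44 RPKM.

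MARS2, IARS2 and NARS2, for methionine, isoleucine and asparagine, had the highest ratios of the mitochondrial group by the mean of the lines. MARS2 had 6.87 and 5.95 RPKM with DMSO and 7.76 and 6.85 RPKM with JQ1 in SU-DHL-5, where the libraries overlapped (ratio 0.18, 0.04 to 0.35), and 3.54 and 3.77 against 4.40 and 4.66 RPKM in Toledo, where they did not (ratio 0.30, 0.11 to 0.51). IARS2 had the highest level of the mitochondrial group, with 41.2 and 41.0 against 48.9 and 51.5 RPKM in SU-DHL-5 (ratio 0.29, 0.23 to 0.34) and 52.0 and 61.1 against 64.1 and 58.9 RPKM in Toledo, where the libraries overlapped (ratio 0.12, 0.08 to 0.18). The JQ1 libraries of IARS2 were therefore clearly apart from DMSO only in SU-DHL-5. NARS2 had 12.4 and 12.6 against 13.5 and 12.7 RPKM in SU-DHL-5 (ratio 0.07, -0.05 to 0.20) and 19.1 and 21.1 against 26.5 and 24.7 RPKM in Toledo (ratio 0.35, 0.26 to 0.44). By the first or the second library alone its ratios were 0.13 or 0.02, and 0.47 or 0.23.

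PARS2, the proline enzyme, and VARS2, the valine enzyme, were above in Toledo with overlapping libraries in SU-DHL-5. PARS2 had 4.16 and 3.58 against 4.45 and 3.53 RPKM in SU-DHL-5 and 3.06 and 3.28 against 3.89 and 4.03 RPKM in Toledo, with ratios of 0.04 and 0.31. VARS2 had 8.40 and 7.25 against 8.69 and 8.38 RPKM and 10.4 and 9.90 against 10.9 and 11.1 RPKM, with ratios of 0.12 and 0.11, the latter being 0.07 or 0.16 by the first or the second library alone. Neither gene was below DMSO in both of its JQ1 libraries in any line.

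HARS2, for histidine, was above in SU-DHL-5, with 3.37 and 3.89 RPKM with DMSO and 4.20 and 4.77 RPKM with JQ1 (ratio 0.30, 0.08 to 0.51), and level in Toledo, with 9.40 and 10.3 against 10.1 and 9.64 RPKM. RARS2, for arginine, overlapped in both lines, with 8.22 and 7.77 against 7.94 and 7.83 RPKM and 5.43 and 5.19 against 6.23 and 5.16 RPKM. HARS and HARS2 share 302 bases of the table's intervals at their starts.

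TARS2 and WARS2 had libraries apart in opposite directions. TARS2, for threonine, had 29.7 and 29.2 RPKM with DMSO and 25.3 and 27.2 RPKM with JQ1 in SU-DHL-5 (ratio -0.17, -0.25 to -0.09), and 24.3 and 24.3 against 26.5 and 26.1 RPKM in Toledo (ratio 0.11, 0.03 to 0.20). WARS2, for tryptophan, had 3.89 and 4.16 against 5.02 and 4.97 RPKM in SU-DHL-5 (ratio 0.31, 0.13 to 0.49), and 3.24 and 3.24 against 2.77 and 3.06 RPKM in Toledo (ratio -0.15, -0.37 to 0.07). By the first or the second library alone, TARS2 in SU-DHL-5 was at -0.23 or -0.10 and WARS2 in Toledo at -0.22 or -0.08. WARS2 was the highest of the mitochondrial genes by ratio in SU-DHL-5, where WARS was the lowest of all.

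**Figure D3:**
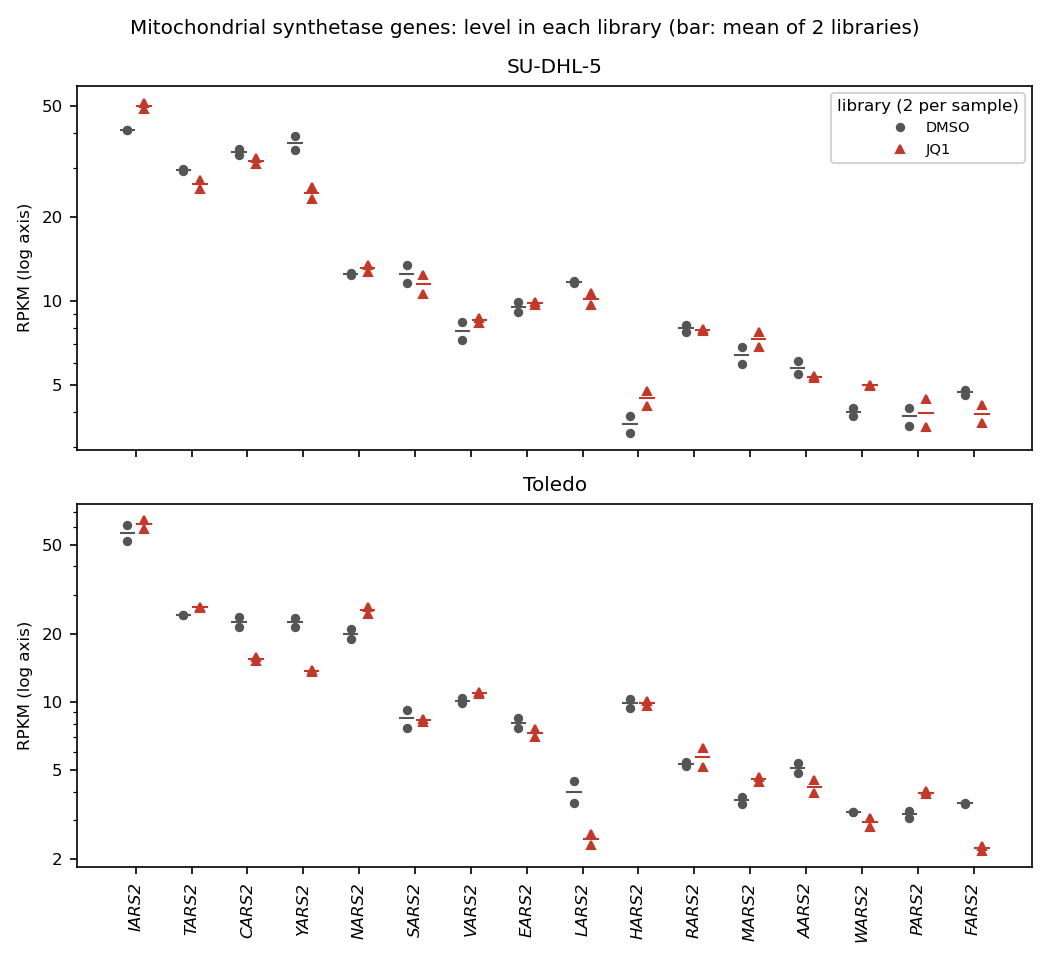
RPKM on a log axis of the 16 mitochondrial synthetase genes in SU-DHL-5 (top) and Toledo (bottom), in order of their mean level; each point is a library (DMSO gray circles, JQ1 red triangles) and each bar the mean of the 2 libraries of a sample. YARS2 has its triangles under its circles in both lines, LARS2 and FARS2 show the wider gap in Toledo, and IARS2 and WARS2 lie above in SU-DHL-5.

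For 13 amino acids a cytosolic and a mitochondrial enzyme are each encoded by a gene of their own. Phenylalanine, whose cytosolic enzyme has separate subunit genes, was not counted as a pair. The cytosolic gene had the lower ratio in 12 of the 13 pairs in SU-DHL-5 and in 11 in Toledo, and the median difference was -0.37 and -0.18 on the log2 scale. The exceptions were RARS in SU-DHL-5 (difference 0.04) and CARS (0.22) and SARS (0.14) in Toledo. The methionine pair was wide in both lines, with MARS below MARS2 by a difference of -0.92 and -0.88, and so was the isoleucine pair, with -0.67 and -0.66. The tyrosine pair moved alike, with differences of -0.06 and -0.07. The tryptophan pair differed by -1.09 in SU-DHL-5 and by -0.12 in Toledo. In the DMSO samples the cytosolic gene had the higher level in 12 of the 13 pairs of each line, by a median of 5.31-fold and 5.24-fold. CARS in SU-DHL-5 (0.891-fold of CARS2) and IARS in Toledo (0.930-fold of IARS2) were the exceptions.

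A list of 12 cytosolic genes known from the literature on ATF4 (AARS, CARS, EPRS, GARS, IARS, LARS, MARS, NARS, SARS, TARS, WARS and YARS) had 12 genes below in SU-DHL-5 (37.3% of all genes). In Toledo, 10 of them lay below (42.9% of all genes) and 1 above (29.3% of all genes). Their medians were -0.45 and -0.31. The other 8 cytosolic genes had 4 below and 1 above in SU-DHL-5 and 5 below and 1 above in Toledo, with medians of -0.10 and -0.18. The list was drawn up with earlier results of these data known, so this split describes the values and is no test of ATF4. By the structural class of the enzyme, the medians were -0.11 and -0.26 for the 19 genes of class I. For the 17 genes of class II they were -0.18 and -0.22. EPRS, the gene of a fused enzyme, was counted in class I only.

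ATF4 itself had 159 and 164 RPKM with DMSO and 124 and 117 RPKM with JQ1 in SU-DHL-5, and 145 and 136 against 116 and 102 RPKM in Toledo, with ratios of -0.42 and -0.37. ATF4 is known to be controlled mainly at translation, which these libraries do not measure. Of 13 genes of the stress response in which ATF4 acts, 9 lay below (37.3% of all genes) and 3 above (41.1%) in SU-DHL-5, with a median of -0.18. In Toledo, 10 lay below (42.9% of all genes) and 3 above (29.3%), with a median of -0.37. By the mean of the lines, TRIB3, a pseudokinase induced by ATF4, was the lowest, with 17.6 and 17.3 against 8.53 and 7.99 RPKM and 24.1 and 19.7 against 6.54 and 7.42 RPKM (ratios -1.07 and -1.64). SESN2, an inhibitor of mTORC1 signaling that is also known as an ATF4 target, was the highest by that mean, with 4.69 and 4.56 against 6.27 and 5.24 RPKM and 4.57 and 4.87 against 5.84 and 6.66 RPKM (ratios 0.31 and 0.40). In SU-DHL-5 alone, CHAC1 (-1.14) lay lowest and DDIT4, a further mTORC1 inhibitor, highest. These, like SLC7A5, ASNS and EEF1G in what follows, are named after their values were seen. DDIT4 had 115 and 178 against 270 and 261 RPKM there (ratio 0.86) and 26.8 and 32.5 against 21.8 and 20.4 RPKM in Toledo (ratio -0.49).

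Genes that supply the amino acids, by synthesis or by transport, were mostly lower too. Of 11 such genes 10 passed 1 RPKM. In SU-DHL-5, 7 of these lay below (37.3% of all genes) and 2 above (41.1%). In Toledo, 7 lay below (42.9% of all genes) and 1 above (29.3%), and the median was -0.33 in both lines. SLC7A1, a transporter of arginine and lysine, was the lowest by the mean of the lines, with 9.39 and 8.46 RPKM against 5.34 and 4.81 RPKM in SU-DHL-5 and 9.08 and 10.3 against 5.90 and 5.02 RPKM in Toledo (ratios -0.80 and -0.82). SLC38A2, a transporter of small neutral amino acids, was the highest by that mean, with 19.6 and 20.2 against 23.8 and 23.3 RPKM and, with overlapping libraries, 38.4 and 49.7 against 55.8 and 49.6 RPKM (ratios 0.24 and 0.26). In single lines other genes ranked higher, and these moved in opposite directions. SLC7A5, a transporter of large neutral amino acids, had ratios of 0.25 and -0.72, and ASNS, which makes asparagine, had -0.23 and 0.53.

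The charging partners are 13 genes for editing, tRNA end repair, amidotransfer and related steps, with medians of 0.000 and -0.004. Leaving out TARSL2, which had no reads in SU-DHL-5, the medians of the other 12 were -0.07 and -0.12, a choice made after seeing the data. QRSL1, a subunit of the enzyme that makes glutaminyl-tRNA in mitochondria, was the lowest by the mean of the lines, with 7.18 and 6.69 against 5.21 and 5.66 RPKM and 16.9 and 16.3 against 7.57 and 7.39 RPKM (ratios -0.35 and -1.14). MTFMT, which formylates the initiator methionyl-tRNA of mitochondria, was the highest by that mean, with 7.76 and 7.11 against 12.4 and 12.5 RPKM and 4.09 and 4.04 against 6.73 and 6.13 RPKM (ratios 0.74 and 0.65). TARSL2, a further threonyl-tRNA synthetase gene, was listed at 0 in the libraries of SU-DHL-5 and had 3.59 and 3.54 against 8.08 and 7.78 RPKM in Toledo (ratio 1.13).

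The 9 genes of the list for elongation factors and related proteins stayed near level in SU-DHL-5, with a median of -0.02. There, 2 lay below (37.3% of all genes) and 1 above (41.1%). In Toledo, 3 lay below (42.9% of all genes) and 4 above (29.3%), with a median of 0.08. By the mean of the lines, EEF1D was the highest, with 127 and 121 against 144 and 150 RPKM and 312 and 275 against 403 and 459 RPKM (ratios 0.25 and 0.55), and GFM2 the lowest, with 16.3 and 17.2 against 16.8 and 16.2 RPKM and 6.55 and 5.90 against 5.16 and 4.30 RPKM (ratios -0.02 and -0.39), although EEF1G (-0.14) was lower in SU-DHL-5. MYC had 44.1 and 40.9 against 35.2 and 34.4 RPKM in SU-DHL-5 (ratio -0.29) and 40.4 and 44.4 against 44.6 and 42.1 RPKM in Toledo, where the libraries overlapped (ratio 0.03).

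**Figure D4:**
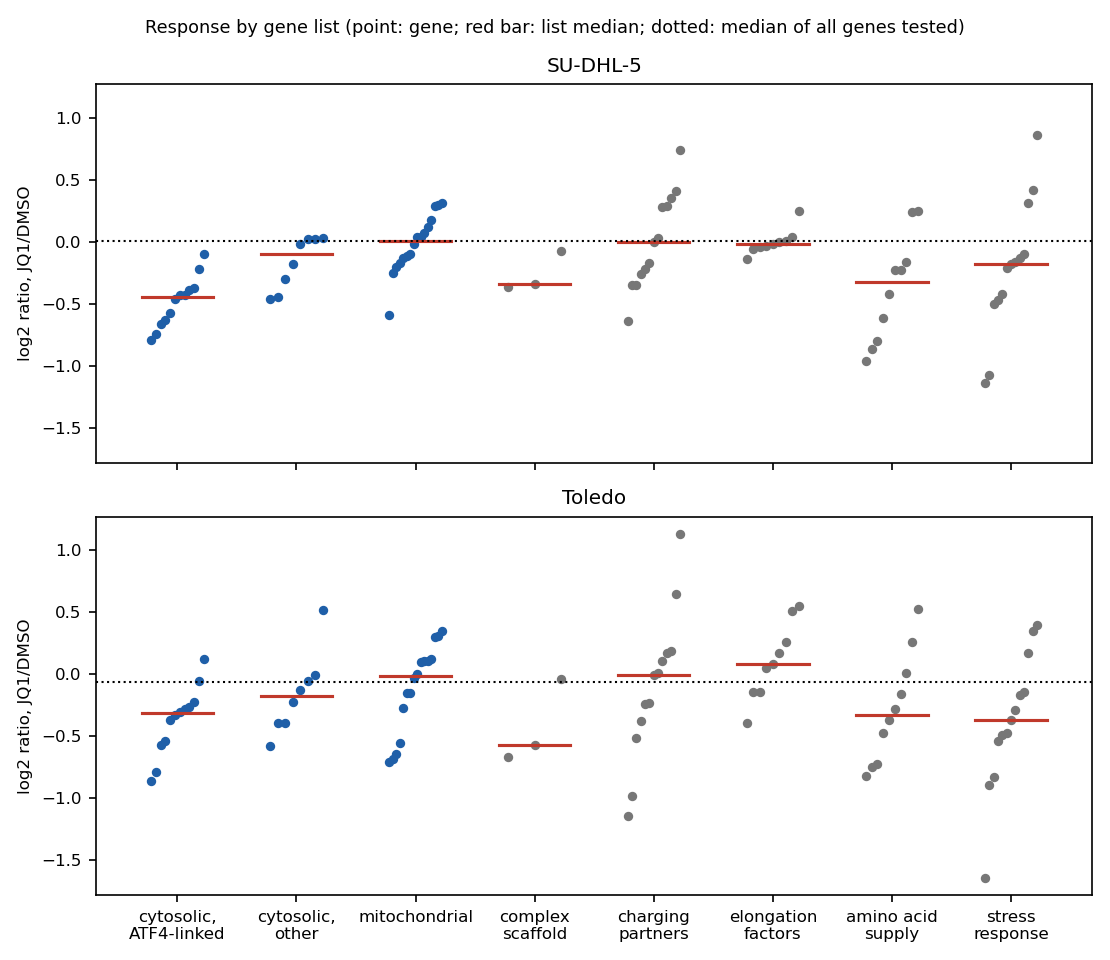
Log2 ratio of JQ1 over DMSO of each gene of 8 lists in SU-DHL-5 (top) and Toledo (bottom), with red bars at the list medians, a dotted line at the median of all genes tested, and the synthetase lists in blue. The ATF4-linked cytosolic synthetases, with medians of -0.45 and -0.31, and the amino acid supply genes, with -0.33 in both lines, sit under the dotted line, while the mitochondrial synthetases and the charging partners straddle it.

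The lines differed in their starting levels. In DMSO, the Toledo libraries lay above those of SU-DHL-5 for 9 of the 36 synthetase genes (42.1% of all genes) and below for 23 (42.2% of all genes), with a median log2 ratio of Toledo over SU-DHL-5 of -0.20 for the cytosolic and -0.30 for the mitochondrial genes. KARS, TARS and HARS2 were the genes with the largest excess in Toledo, with log2 ratios of 1.22, 0.96 and 1.42, and LARS2 and DARS had the largest excess in SU-DHL-5, with -1.53 and -0.92. By level in DMSO, KARS was first and GARS the second in each line, and in Toledo the libraries of GARS overlapped those of FARSA. Next came QARS (127 and 120 RPKM) and DARS (110 and 122 RPKM) in SU-DHL-5, whose libraries overlapped, and FARSA (102 and 95.3 RPKM) and SARS (94.1 and 93.9 RPKM) in Toledo, whose libraries did not. With 1 sample of each line, a difference between lines and one between cultures cannot be told apart.

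The transcript table lists 99 transcripts of the synthetase genes, of which 65 had a mean of at least 1 RPKM and 19 genes had several such transcripts. Of the 65, the JQ1 libraries lay below the DMSO libraries for 37 in SU-DHL-5 and for 31 in Toledo. They lay above for 6 and 12. Of all 16526 transcripts of at least 1 RPKM, 31.2% and 35.5% lay below and 31.2% and 25.2% above in these lines. How reads shared between transcripts were divided is not given in the sources used here, so single transcripts are less certain than genes. The examples that follow were chosen after their values were seen.

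The transcripts of TARS parted in Toledo. TARS_1 had 44.7 and 48.3 RPKM with DMSO and 26.6 and 25.5 RPKM with JQ1, and TARS_3, whose listed start lies downstream, had 37.7 and 42.1 against 42.8 and 45.8 RPKM, with ratios of -0.83 and 0.15. In SU-DHL-5 both were below, with ratios of -0.72 and -0.21. In WARS, the major transcript WARS_2 had 40.2 and 40.2 against 27.9 and 31.6 RPKM in SU-DHL-5 and 43.0 and 49.6 against 42.6 and 46.1 RPKM in Toledo, with ratios of -0.43 and -0.06. The transcript WARS_4 had 11.7 and 6.13 against 2.12 and 1.85 RPKM and 5.14 and 4.53 against 2.71 and 2.62 RPKM, with ratios of -2.11 and -0.84. WARS_5 was at 8.30 and 5.99 against 2.07 and 2.19 RPKM in SU-DHL-5 and under 1 RPKM in Toledo. WARS_1, the next most abundant, had 18.4 and 12 against 9.77 and 7.81 RPKM and 15.3 and 11.2 against 7.22 and 7.99 RPKM, with a ratio of -0.79 in both lines.

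In IARS the major transcript IARS_1 had ratios of -0.26 and -0.30, and IARS_2, with 21.7 and 19.4 against 10.9 and 12 RPKM and 13.3 and 17.2 against 7.18 and 4.67 RPKM, had -0.84 and -1.35. FARSB, whose gene values were level, held FARSB_1 above in both lines, with 72.4 and 62.7 against 75 and 75.2 RPKM and 30 and 32.4 against 37.9 and 35.0 RPKM (ratios 0.15 and 0.22). FARSB_2 lay below in both, with 2.50 and 3.6 against 1.81 and 1.56 RPKM and 22 and 24.7 against 15.1 and 12.8 RPKM (ratios -0.82 and -0.74). FARSB_3 lay below in SU-DHL-5, with 10 and 9.63 against 2.51 and 5 RPKM (ratio -1.37). In Toledo its libraries overlapped, with 7.37 and 3.46 against 4.82 and 13.3 RPKM (ratio 0.74).

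**Figure D5:**
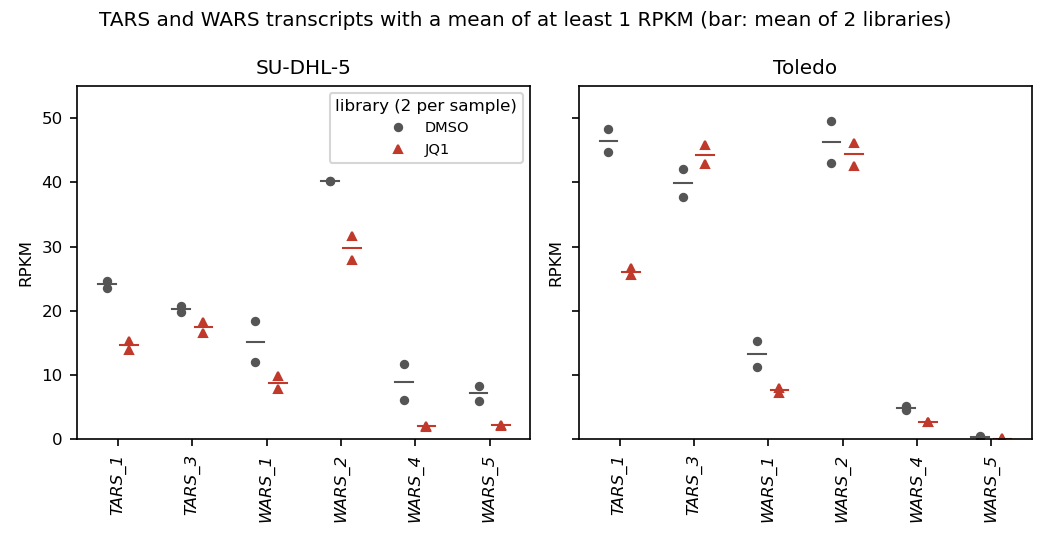
RPKM of the TARS and WARS transcripts with a mean of at least 1 RPKM over the libraries, in SU-DHL-5 (left) and Toledo (right); points are libraries (DMSO gray circles, JQ1 red triangles) and bars the means of 2 libraries. In Toledo, TARS_1 has its JQ1 libraries at 26.6 and 25.5 RPKM, far under DMSO, while those of TARS_3 lie slightly above it.

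Some synthetase genes share bases with other genes of at least 1 RPKM in the table. MARS shares 669 bases with ARHGAP9 and 68 with DDIT3, YARS 591 with S100PBP, CARS2 979 with ING1 and SARS2 189 with MRPS12. The libraries were made with a stranded kit, but whether the counting used the strand is not stated in the sources used here. The table also lists 7 pseudogenes of synthetase genes, all at 0 in every library, so that reads of near-identical copies were not seen apart from those of the genes.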

How the data were processed

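The authors sequenced RNA of 4 samples, using a kit for stranded mRNA libraries, and deposited a gene table and a transcript table with RPKM values of 8 libraries. The submitters' processing notes name CASAVA 2.0 and GRCh38 (hg38). The aligner, the counting and the annotation are not given in the sources used here, nor is what distinguishes the 2 libraries of a sample, which were averaged as 1 replicate. Columns were assigned by line and treatment. Mapped reads per library were recovered from 178 genes of 1 exon, and whole reads (tolerance 0.01) resulted for 14943 of 14944 genes with a value, which served for the 95% exact binomial counting intervals. Ratios are log2((JQ1 + 0.1)/(DMSO + 0.1)), which understates differences of low genes. Genes with a mean of at least 1 RPKM were kept. No test was made, since each treatment of a line was 1 sample and the lines were not treated as replicates. The steps were tested on simulated data. Scripts ran in Python 3.11.15 with pandas 2.3.3 and numpy 2.4.6, intervals came from scipy 1.17.1, and plots from matplotlib 3.10.9. The genes and lists were chosen with earlier results of these data known. Library values were to be given for the 5 lowest and 3 highest genes of each group by the mean ratio of the lines, for genes apart in opposite directions and for the highest and lowest levels, and from other lists for the highest and the lowest gene, MYC, ATF4 and the scaffold genes. They are given here for all 36 synthetase genes. A further marker gene of the list is not reported here.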

Additional observations from a re-analysis of the deposited data

Results flagged for a closer look

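RARS, SARS, TARS2 and WARS2 are given here because the JQ1 libraries were all under those of DMSO in 1 line and all over them in the other. The log2 ratio of Toledo minus that of SU-DHL-5 was -0.15 for RARS, 0.33 for SARS, 0.28 for TARS2 and -0.45 for WARS2. The difference between the lines was not tested, as each line had 1 sample per treatment. In SU-DHL-5 the ratio of RARS was 0.02, with a counting interval of -0.06 to 0.09, and in Toledo that of WARS2 was -0.15, with an interval of -0.37 to 0.07.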

How the results depend on the processing

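No paired analysis was possible because the results are values within a line, with a single sample per treatment, and come from no test; a fit over both lines with the line as a block was not made. The cytosolic median was negative under every alternative run, between -0.50 and -0.27 for SU-DHL-5 and between -0.29 and -0.22 for Toledo. In Toledo it was -0.22 after scaling by the median ratio of all genes, -0.24 with library 1 alone and -0.23 when centred on genes of like length. The mitochondrial median in SU-DHL-5 was -0.02 with genes of at least 5 RPKM and -0.04 with library 1 alone, and in Toledo 0.05 after scaling, -0.06 with library 2 alone and 0.09 when centred on length. The cytosolic minus the mitochondrial median was -0.27 with library 2 alone in SU-DHL-5 (-0.41 as reported). In Toledo (-0.28 as reported) it was -0.29 with at least 5 RPKM, -0.28 with transcripts summed, -0.21 with library 1 or library 2 alone, and -0.32 when centred on length. After scaling, 0 cytosolic genes lay above in SU-DHL-5, where RARS did before, and the ratio of RARS in Toledo became 0.03 when centred on length. Of 642 values of single genes under alternatives, 539 stayed within the counting interval. The sign changed in 18 values of genes whose libraries overlapped and in 2 of genes whose libraries were apart, both of RARS. Of 56 ratios with libraries apart, 19 moved by over 1.5 times with 1 library alone. The cause of these shifts was not tested. With 1 sample per condition the variation between cultures is unknown.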
